A study of Mus musculus with 5 samples.

Results

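The genes described here are the nuclear genes for the respiratory chain and the ATP synthase of mitochondria, taken as every symbol that begins with Nduf and a subunit letter and number, with Uqcr, with Cox and a number from 4 to 8, or with Atp5. The rule found 81 of the 22026 genes in the files: 37 of complex I, 8 of complex III, 19 of complex IV and 17 of complex V, the ATP synthase. They were measured by RNA-seq in mouse embryos of the B6D2F1 strain at the 4-cell stage, made by nuclear transfer, in which a donor nucleus is placed in an oocyte whose own nucleus was removed. Each of the 5 groups was 1 library: no treatment, luciferase, knockdown of the histone H3.3, the knockdown with H3.3 mRNA added, and the knockdown with H3.2 mRNA added. The variant H3.3 is deposited in chromatin outside DNA replication, and H3.2 is deposited with replication. The series asks, by its title, about the part of maternal H3.3 in reprogramming by the oocyte. The donor cell, the agent of the knockdown and the number of embryos pooled are not given in the sources used here.

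Complex I takes electrons from NADH and passes them through ubiquinone to complex III, which hands them through cytochrome c to complex IV, where oxygen is reduced. Complexes I, III and IV pump protons across the inner mitochondrial membrane, and the ATP synthase lets the protons flow back to make ATP. Most subunits are encoded in the nucleus and the others in mitochondrial DNA, and cleavage embryos live on mitochondria inherited from the oocyte and on the oxidation of pyruvate. The mitochondrially encoded subunits were not analysed here.

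Levels are given in FPKM, a level per length of transcript and per mapped reads of the library, which puts different genes on the same scale. Differences between libraries still moved with transcript length, as given below, so genes of unlike length are compared with that limit. With 1 library per group no difference has a replicate check, and no p-value or error can be given. Differences are on the log2(FPKM + 1) scale, which understates the change of low genes, and 2-fold or more counted as higher or lower. The depth of the libraries is unknown. H3f3a and H3f3b, the H3.3 genes, summed to 5266 FPKM without treatment, to 5734 FPKM with luciferase, and to 664, 467 and 420 FPKM in the knockdown, H3.3 mRNA and H3.2 mRNA libraries. The library labelled H3.3 mRNA thus lay below the knockdown in these genes, whose levels do not bear out its label, and it is named here by that label. The labels of the last library conflict, with H3.2 mRNA in the title and the series design but H3.3 mRNA in the treatment tag; the title was followed. The source names also divide the libraries: luciferase and H3.2 mRNA carry SCNT, and the other 3 carry NT, so that of the controls only the untreated one shares the name of the knockdown. All 11 oocyte and early embryo markers were above 0 in every library. Fibroblast markers were at 0, with the exception of 1 gene at 2.48 FPKM in the luciferase library, and of the 8 cumulus cell markers 2 or 3 were above 0 in each library, mostly Amhr2, at 142, 472, 1056, 429 and 527 FPKM in the untreated, luciferase, knockdown, H3.3 mRNA and H3.2 mRNA libraries, with Inha, Foxl2, Cyp19a1 and Star at most at 19.7 FPKM and Amh, Ptx3 and Has2 at 0 throughout.

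The respiratory chain genes stood highest in the H3.3 knockdown library and lowest in the library labelled H3.2 mRNA. Their summed level was 84517 FPKM in the untreated, 66958 FPKM in the luciferase, 115404 FPKM in the knockdown, 61655 FPKM in the H3.3 mRNA and 42872 FPKM in the H3.2 mRNA library. That was 2.38%, 1.96%, 3.22%, 2.03% and 1.74% of all FPKM in those libraries. The knockdown sum was 1.37 times the untreated and 1.72 times the luciferase sum, and the sums of the H3.3 mRNA and H3.2 mRNA libraries were 0.534 and 0.371 times the knockdown sum. FPKM is scaled to the reads of each library, so these sums are not amounts of RNA per embryo. As each library holds RNA from whole embryos, fewer cells of a type and less RNA per cell cannot be told apart.

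Gene by gene, the knockdown was the highest library for most of the genes and the H3.2 mRNA library the lowest for most. Of the 81 genes, 76 passed the filter of a mean of at least 1 FPKM over the 5 libraries, and the other 5, Ndufa4l2, Cox6a2, Cox7b2, Cox8b and Cox8c, were listed at 0 throughout. The knockdown was the highest of the 5 libraries for 56 of the 76, against 19.0% of all 13144 genes past the filter. The H3.2 mRNA library was the lowest for 49 of the 76, against 12.2% of all genes, and it was the highest for 0 of them, against 19.7%. The untreated library was the highest for 11 genes, against 26.3% of all genes, the luciferase library for 7, against 18.2%, and the H3.3 mRNA library for 2, against 16.7%. The lowest library was the untreated one for 11 genes, against 20.7% of all genes, H3.3 mRNA for 10, against 11.9%, luciferase for 3, against 11.3%, and the knockdown for 2, against 20.4%. Under the 3 scalings tried, the knockdown was the highest for 51 to 52 genes, against 15.3% to 20.5% of all genes. The H3.2 mRNA library was the lowest for 36 to 42, against 5.95% to 11.7%. The smaller counts moved more: after rescaling to the same sum, the H3.2 mRNA library was the highest for 8 genes, against 31.4% of all genes, and luciferase the lowest for 13, against 13.9%, and under upper-quartile scaling the untreated library was the lowest for 18, against 28.0%. The median level over the 76 genes was 542.4 FPKM in the untreated, 483 FPKM in the luciferase, 980.0 FPKM in the knockdown, 515 FPKM in the H3.3 mRNA and 297 FPKM in the H3.2 mRNA library.

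**Figure D1:**
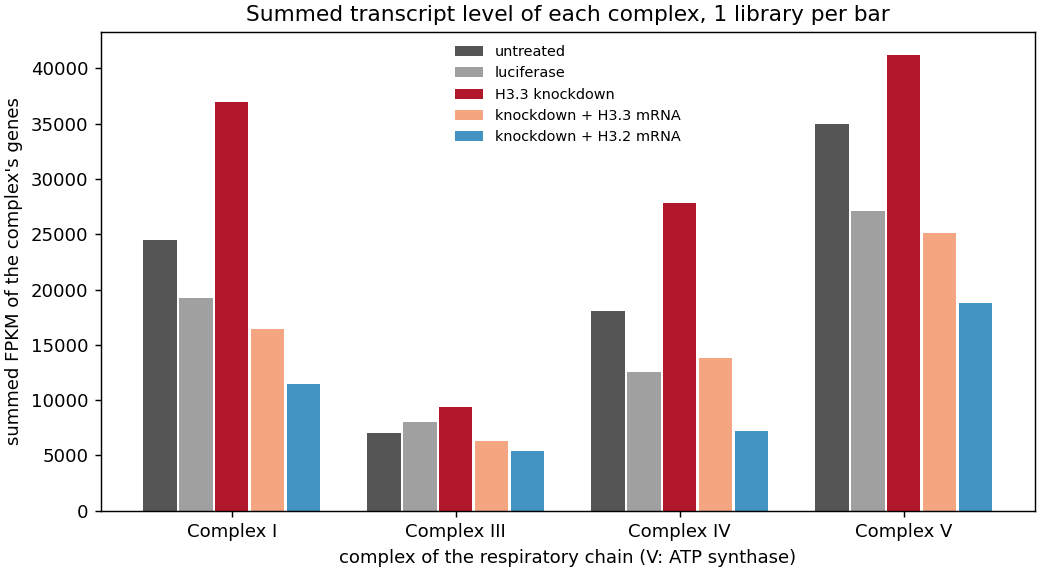
Summed FPKM of the genes of complex I, III, IV and V (vertical axis) in each library, 1 bar per library and no replicates. The knockdown bar is the tallest in each complex, 36962 FPKM in complex I and 41208 FPKM in complex V, and the H3.2 mRNA bar is the shortest, 11468 FPKM in complex I and 18795 FPKM in complex V.

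**Figure D2:**
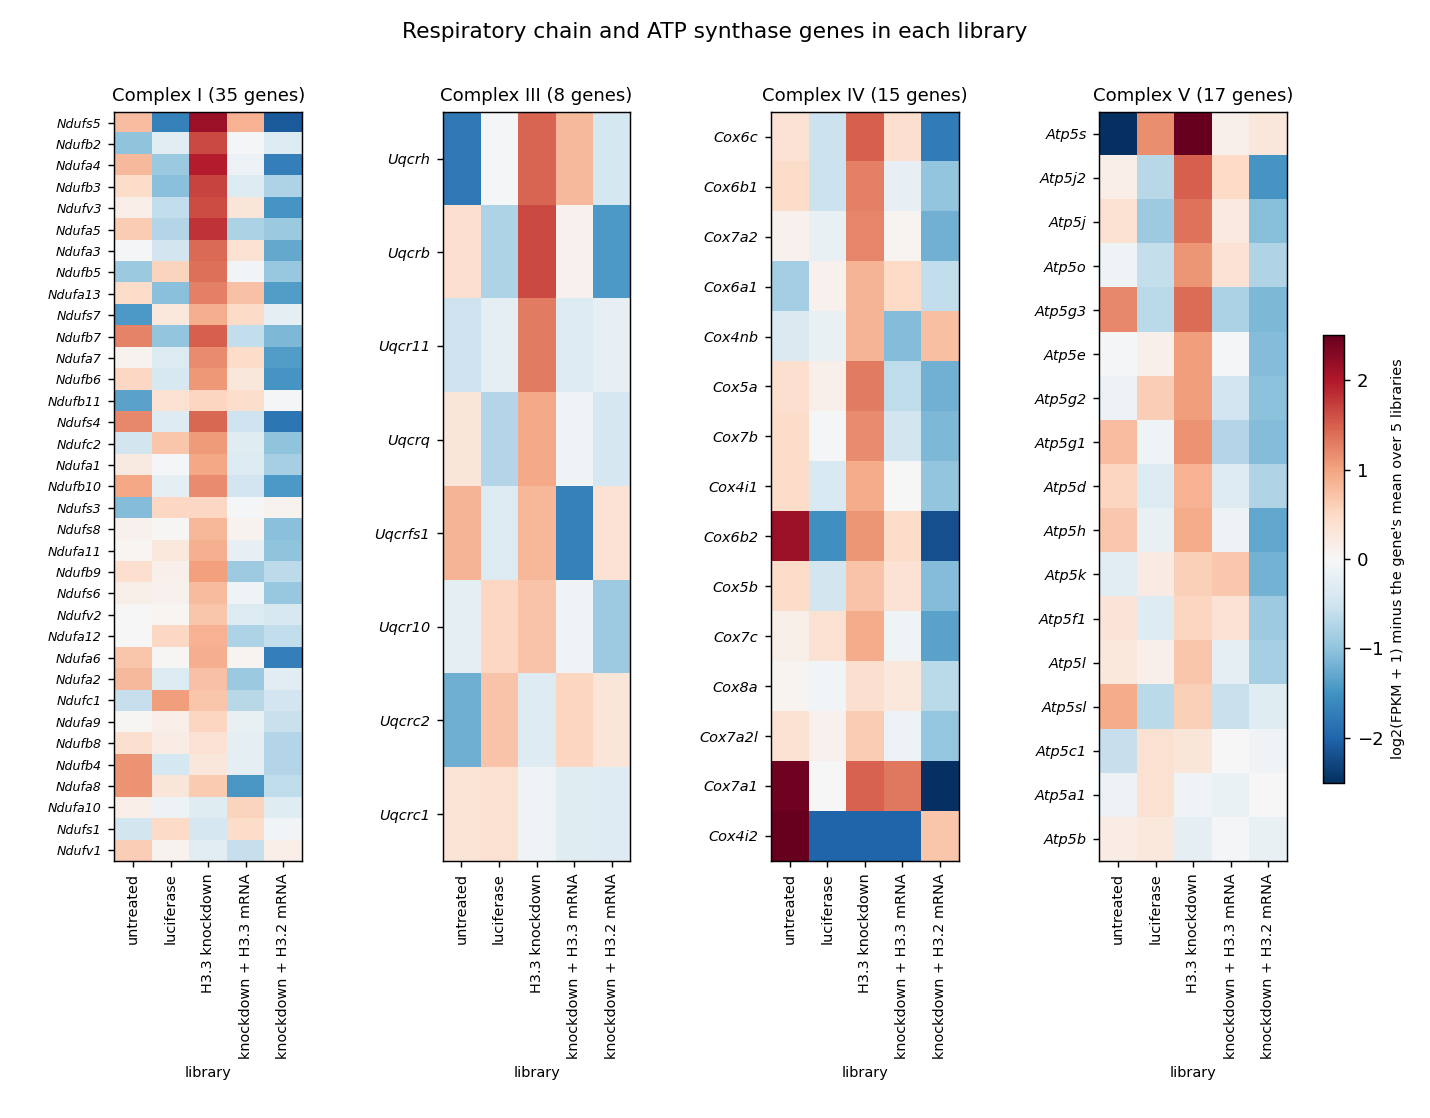
Each gene's log2(FPKM + 1) minus its mean over the 5 libraries (colour), with 1 panel per complex, libraries in columns and genes ordered by the knockdown minus the mean of both controls; 1 gene of complex I is not drawn. The knockdown column is the highest for 56 of 76 genes, and the lower ends of the complex III and V panels hold Uqcrc1 and Atp5b, whose ranges over the libraries were 0.71 and 0.49.

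Promoters of genes at both ends of this order were read to show the starts of genes that moved together and of genes that did not. Sequences come from RefSeq on the GRCm38.p6 build, a window of 300 bases from 250 before to 50 after the gene's start, 5′ to 3′ on the gene's strand. Capitals mark matches, on either strand, to the letters searched for NRF1 (GCGCA and GCGC with any 1 base between), GABPA (CCGGAAG), YY1 (AAGATGGCG) or SP1 (GGGGCGGGG), factors known to bind promoters of respiratory genes; matches may overlap. The choice was made after the values were seen: Ndufs5, Uqcrh, Cox6b1 and Atp5j2 stood above both controls in the knockdown, and Atp5b and Uqcrc1 are among the 3 genes of the smallest range over the libraries.
Ndufs5, chr4:123718137-123718436, minus strand: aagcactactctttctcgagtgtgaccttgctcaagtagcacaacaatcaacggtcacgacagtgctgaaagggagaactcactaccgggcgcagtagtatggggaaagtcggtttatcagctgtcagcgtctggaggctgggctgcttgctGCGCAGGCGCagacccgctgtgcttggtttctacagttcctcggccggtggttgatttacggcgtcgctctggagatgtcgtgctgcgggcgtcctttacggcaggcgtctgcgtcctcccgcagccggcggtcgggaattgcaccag
Uqcrh, chr4:116075021-116075320, minus strand: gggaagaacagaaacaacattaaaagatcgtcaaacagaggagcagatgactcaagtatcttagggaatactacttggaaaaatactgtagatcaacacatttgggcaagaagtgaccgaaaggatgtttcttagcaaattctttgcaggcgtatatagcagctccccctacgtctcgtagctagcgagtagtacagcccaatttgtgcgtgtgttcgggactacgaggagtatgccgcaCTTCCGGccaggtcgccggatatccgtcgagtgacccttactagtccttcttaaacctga
Cox6b1, chr7:30626065-30626364, minus strand: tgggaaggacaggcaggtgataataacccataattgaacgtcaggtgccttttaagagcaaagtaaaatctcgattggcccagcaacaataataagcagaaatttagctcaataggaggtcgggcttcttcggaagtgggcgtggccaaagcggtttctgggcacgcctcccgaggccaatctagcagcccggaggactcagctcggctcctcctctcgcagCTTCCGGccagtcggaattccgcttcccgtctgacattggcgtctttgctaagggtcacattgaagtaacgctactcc
Atp5j2, chr5:145191492-145191791, minus strand: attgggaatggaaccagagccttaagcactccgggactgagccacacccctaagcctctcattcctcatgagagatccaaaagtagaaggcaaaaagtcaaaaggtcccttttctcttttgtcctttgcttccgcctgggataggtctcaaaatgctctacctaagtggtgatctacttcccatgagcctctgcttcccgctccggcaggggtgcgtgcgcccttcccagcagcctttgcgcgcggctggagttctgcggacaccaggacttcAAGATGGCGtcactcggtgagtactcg
Atp5b, chr10:128083057-128083356, plus strand: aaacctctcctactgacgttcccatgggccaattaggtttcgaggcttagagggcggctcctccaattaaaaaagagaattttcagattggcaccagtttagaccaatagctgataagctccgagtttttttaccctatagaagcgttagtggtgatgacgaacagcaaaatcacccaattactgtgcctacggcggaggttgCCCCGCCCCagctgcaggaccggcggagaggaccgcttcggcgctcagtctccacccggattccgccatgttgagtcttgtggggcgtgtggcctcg
Uqcrc1, chr9:108936398-108936697, plus strand: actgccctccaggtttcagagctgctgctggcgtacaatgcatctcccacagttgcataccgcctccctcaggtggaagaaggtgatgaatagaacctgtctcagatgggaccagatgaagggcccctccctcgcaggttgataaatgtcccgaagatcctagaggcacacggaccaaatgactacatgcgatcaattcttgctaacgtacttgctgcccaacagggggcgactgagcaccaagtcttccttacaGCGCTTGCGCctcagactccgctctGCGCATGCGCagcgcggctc
Ndufs5 holds an NRF1 match, Uqcrh and Cox6b1 a GABPA match each, Atp5j2 a YY1 match, Atp5b an SP1 match and Uqcrc1 a pair of NRF1 matches close to its start.

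RefSeq gave a promoter for 64 of the 76 genes. An NRF1 match was in 14 of them (21.9%), against 10.4% of the 9228 promoters of genes past the filter and 4.78% of all 27025 promoters. A YY1 match was in 7 (10.9%), against 3.14% and 1.49%, a GABPA match in 13 (20.3%), against 17.6% and 9.12%, and an SP1 match in 11 (17.2%), against 21.9% and 11.6%. To divide the 64 genes for the motif counts, they were split at 2-fold above the mean of both controls in the knockdown, which 26 reached. The share of all genes at this threshold is not given, so the 26 are not a result in themselves. Of the 26, 5 held NRF1, 6 GABPA, 3 YY1 and 3 SP1 letters, and of the other 38 genes 9, 7, 4 and 8 did. The matches were thus found both in the 26 genes and in the other 38, as the printed windows of Ndufs5 and Uqcrc1 show for NRF1. A match describes the letters of the window and is not a bound site.

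The knockdown was compared with each control over the 76 genes. Against the untreated library, which has the same source name, the knockdown held 26 genes at 2-fold or more above and 2 below, where 25.6% of all genes were higher and 29.2% lower, so the count upward was not far above that background and the count downward was far below it. The median difference was 0.73 on the log2 scale, against 0.00 for all genes, and 62 of the 76 genes lay above. At 4-fold, 5 genes were higher, against 16.8% of all genes. Against the luciferase library, of the other source name, 38 genes were higher and 1 lower, where 21.5% of all genes were higher and 32.6% lower. The median difference was 1.01, against -0.12 for all genes, and 65 genes lay above. At 4-fold, 13 were higher, against 9.74% of all genes. At least 2-fold above each of the controls stood 17 genes and below each 0, where 11.3% of all genes were higher and 14.3% lower. By transcript length, 14 of the 50 genes under 1000 bases were 2-fold above both, against 23.6% of all genes so short. Of the 26 longer genes 3 were, against 10.2% of all longer genes, so each count was near its background. At 4-fold there were 0 in either direction, against 4.98% of all genes higher and 6.35% lower.

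**Figure D3:**
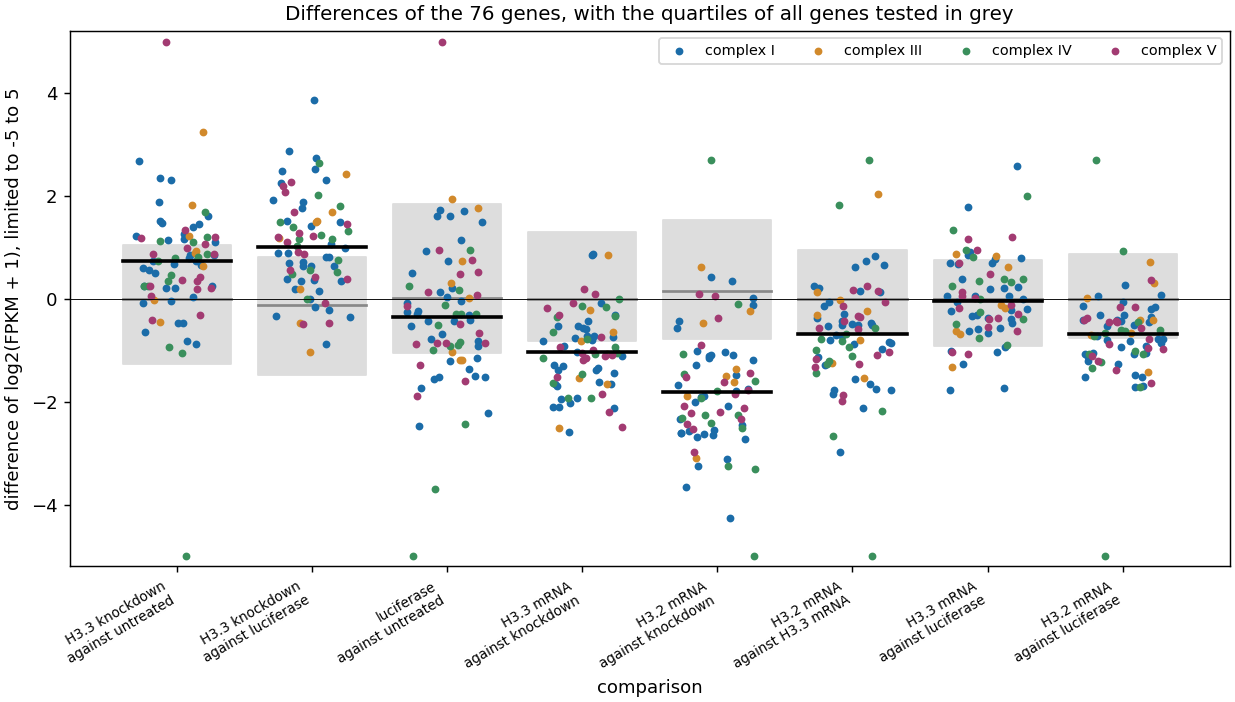
Difference of log2(FPKM + 1) for each of the 76 genes (points, coloured by complex, values beyond -5 or 5 drawn at the edge) in 8 comparisons of 1 library with 1 library; black lines are the medians of the 76 genes, grey boxes the quartiles and grey lines the medians of all genes tested. The black line lies at 1.01 for the knockdown against luciferase and at -1.82 for the H3.2 mRNA library against the knockdown, and that of luciferase against untreated, at -0.36, is at 0.28 under upper-quartile scaling.

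In complex I the genes at least 2-fold above both controls in the knockdown were all outside its catalytic core, which accessory subunits surround and stabilise. The summed level of complex I was 24478 FPKM in the untreated, 19249 FPKM in the luciferase and 36962 FPKM in the knockdown library, 1.69 times the mean of the controls. There were 8 such genes among the 36, where 11.3% of all genes stood so high. At that share few of the 7 core genes would be counted. The 8 were the accessory subunits Ndufs5, Ndufb2, Ndufb3, Ndufa5, Ndufv3, Ndufa3 and Ndufa7, and Ndufa4, which is counted here with the accessory genes by its name. Against luciferase, 14 of the 29 accessory genes and 0 of the 7 core genes were at least 2-fold higher, where 21.5% of all genes were. The median differences were 0.99 and 0.00. Against the untreated library the medians were 0.80 and 0.69, and 12 accessory and 2 core genes were higher, where 25.6% of all genes were. The contrast between the groups was thus seen with 1 control and was small with the other.

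Ndufs5, an accessory subunit on the intermembrane-space side, stood at 400.45 FPKM in the untreated, 71.3 FPKM in the luciferase, 1048 FPKM in the knockdown, 429 FPKM in the H3.3 mRNA and 53.5 FPKM in the H3.2 mRNA library. Its knockdown level was the highest and exceeded the untreated and luciferase levels by 1.39 and 3.86 on the log2 scale; luciferase minus untreated was -2.47. Ndufb2, an accessory subunit of the membrane arm, stood at 116 FPKM without treatment and 195 FPKM with luciferase, at 744 FPKM in the knockdown and at 228 and 185 FPKM in the H3.3 mRNA and H3.2 mRNA libraries. Only the knockdown library was high for Ndufb2, with the other 4 between 116 and 228 FPKM. Ndufa4, which carries a complex I name and is now counted as a subunit of complex IV, stood at 1252, 376, 2762, 643 and 218 FPKM in the untreated, luciferase, knockdown, H3.3 mRNA and H3.2 mRNA libraries. Its difference from the knockdown was -3.66 in the H3.2 mRNA library. Further accessory genes with the knockdown on top were Ndufb3 of the membrane arm, at 463, 162, 1082, 264 and 196 FPKM in the same order of libraries, and Ndufa5 of the matrix arm, at 478, 184, 1070.4, 177 and 160.1 FPKM. For both genes the H3.3 mRNA and H3.2 mRNA libraries lay within 2-fold of the luciferase library. The lowest levels of the 36 genes were those of Ndufb4, at 11.8 to 45.6 FPKM.

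The complex I genes of highest level were Ndufb9, of the membrane arm, and Ndufa9, which sits near the quinone site. Ndufb9 stood at 2413, 1967, 3639, 956 and 1138 FPKM in the untreated, luciferase, knockdown, H3.3 mRNA and H3.2 mRNA libraries, and Ndufa9 at 1164, 1267, 1646, 1002 and 769 FPKM. Both were highest in the knockdown, by less than 2-fold over each control. Core subunits were among the genes lowest in the knockdown against the controls. Ndufv1, which binds NADH, stood at 1207, 836, 653, 526 and 879 FPKM in the same order. Ndufs1, the largest iron-sulfur subunit, stood at 268, 507, 275, 503 and 351 FPKM. Neither gene differed by 2-fold between the knockdown and either control, and in both the knockdown was below the luciferase library. Other core genes went the other way against the untreated library: Ndufs7 stood at 117 FPKM there and 601 FPKM in the knockdown, and Ndufs3 at 144 and 441 FPKM, with 384 and 440 FPKM in the luciferase library.

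In complex III small subunits stood above both controls in the knockdown and the core proteins did not. The complex summed to 7002 FPKM in the untreated, 8032 FPKM in the luciferase, 9378 FPKM in the knockdown, 6275 FPKM in the H3.3 mRNA and 5444 FPKM in the H3.2 mRNA library, and the knockdown sum was 1.25 times the mean of the controls. Uqcrh, the hinge protein that helps to dock cytochrome c, stood at 142 FPKM in the untreated, 482 FPKM in the luciferase, 1351 FPKM in the knockdown, 859 FPKM in the H3.3 mRNA and 362 FPKM in the H3.2 mRNA library. Its knockdown level lay 3.24 above the untreated and 1.49 above the luciferase level on the log2 scale. Uqcrb, a small subunit near the quinone site, stood at 498, 217, 1165, 399.9 and 136 FPKM in the same order, and Uqcr11, another small subunit, at 149, 184, 529.6, 168 and 186 FPKM. These were the 3 genes of the complex, out of 8, at least 2-fold above both controls, where 11.3% of all genes were. For Uqcr11 the other 4 libraries lay within 149 to 186 FPKM.

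Uqcrc1 and Uqcrc2, the core proteins of complex III on the matrix side, did not follow. Uqcrc1 stood at 3860.4 FPKM in the untreated, 3923 FPKM in the luciferase, 2839 FPKM in the knockdown, 2452 FPKM in the H3.3 mRNA and 2406 FPKM in the H3.2 mRNA library, a range of 0.71 on the log2 scale over all 5. Uqcrc2 stood at 358, 1371, 666, 1206 and 1029.9 FPKM in the same order; the untreated library was the low one, and the knockdown minus luciferase was -1.04. Uqcr10, a small subunit of high level, stood at 789, 1319, 1509.8, 854 and 490.1 FPKM, with the knockdown less than 2-fold above either control. Uqcrfs1, the Rieske iron-sulfur protein, stood at 984, 429, 971, 169.8 and 701 FPKM, so the knockdown was at the untreated level and the H3.3 mRNA library was the low one. Uqcrq, a small subunit, stood at 222, 107, 347, 165 and 133 FPKM, 0.64 above the untreated and 1.68 above the luciferase level in the knockdown.

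Complex IV had the largest ratio of its summed level among the 4 complexes. It summed to 18024 FPKM in the untreated, 12578 FPKM in the luciferase, 27856 FPKM in the knockdown, 13810.4 FPKM in the H3.3 mRNA and 7164 FPKM in the H3.2 mRNA library, and the knockdown sum was 1.82 times the mean of the controls. Of its 15 genes past the filter, the knockdown had 4 at least 2-fold above and 2 below the untreated level, where 25.6% and 29.2% of all genes were, so the count above is near the background. Against luciferase it had 10 above and 0 below, where 21.5% and 32.6% were. Cox4i1, the widespread form of the regulatory subunit 4 and the gene of the complex at the highest level, stood at 5604, 3111, 7751, 4069 and 2044 FPKM in the untreated, luciferase, knockdown, H3.3 mRNA and H3.2 mRNA libraries. Cox6b1, a subunit on the intermembrane-space side, stood at 2727, 1359.6, 4766, 1722 and 1001 FPKM. Both were highest in the knockdown and lowest in the H3.2 mRNA library, at 0.264 and 0.210 times the knockdown level. Cox6c stood at 442, 237, 967, 458 and 101 FPKM and Cox7a2 at 443, 361, 957, 432 and 178 FPKM in the same order; these small membrane subunits, with Cox4nb, were the genes at least 2-fold above both controls. Cox4nb, whose symbol comes from its place beside Cox4i1 and which encodes no subunit, stood at 101, 114, 235, 61.0 and 219 FPKM. Unlike the subunits, it was as high in the H3.2 mRNA library as in the knockdown, within 0.10 on the log2 scale. The other widespread subunits, Cox5a, Cox5b, Cox6a1, Cox7b, Cox7c and Cox8a, were each highest in the knockdown, at levels there from 251 FPKM for Cox7b to 4733 FPKM for Cox5a.

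Several complex IV subunits come as a widespread form and a form known from heart, muscle, lung or testis, and the restricted forms held a small share of each family's FPKM, at most 14.2%. Cox6a1, Cox7b and Cox8a held 100% of their families in all 5 libraries. Cox4i2, the lung form of subunit 4, was listed at 156 FPKM without treatment, at 5.47 FPKM with H3.2 mRNA and at 0 in the other 3 libraries. Cox6b2, the testis form, stood at 450.04 FPKM in the untreated, 33.7 FPKM in the luciferase, 215 FPKM in the knockdown, 137 FPKM in the H3.3 mRNA and 20.9 FPKM in the H3.2 mRNA library, which was 14.2%, 2.42%, 4.32%, 7.39% and 2.04% of its family. Cox7a1, the heart and muscle form, stood at 198, 35.9, 103 and 91.7 FPKM in the first 4 of these and was listed at 0 in the H3.2 mRNA library. These 3 forms were highest in the untreated library, unlike the widespread forms. Cox7a2l, which joins complexes III and IV into supercomplexes, held 70.3% to 82.3% of the Cox7a family, with 2126, 1743, 2511, 1465 and 826 FPKM in the same order.

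In the ATP synthase the F1 part, the catalytic head in the matrix, and the Fo part with its stalk, which sits in the membrane, differed in their values. The complex summed to 35013 FPKM in the untreated, 27099 FPKM in the luciferase, 41208 FPKM in the knockdown, 25094 FPKM in the H3.3 mRNA and 18795 FPKM in the H3.2 mRNA library, and the knockdown sum was 1.33 times the mean of the controls. Against luciferase the median difference of the knockdown was -0.08 over the 5 F1 genes and 1.16 over the 10 Fo and stalk genes, and against the untreated library it was 0.34 and 0.65. Atp5b, the catalytic beta subunit, stood at 9734, 10211, 7284, 8305 and 7536 FPKM in the untreated, luciferase, knockdown, H3.3 mRNA and H3.2 mRNA libraries, the highest level of the 76 genes in 4 of the 5 libraries; in the knockdown Cox4i1 was higher. Its range of 0.49 on the log2 scale was the smallest of the 76, followed by that of Atp5a1, the alpha subunit, at 0.55, with 2512, 3606, 2619.9, 2466 and 2791 FPKM. Atp5c1, the gamma subunit that turns inside the head, stood at 948, 1834, 1736, 1396 and 1335 FPKM. In these 3 F1 genes the knockdown was below the luciferase library.

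Atp5j2, the f subunit of the membrane part, stood at 729 FPKM in the untreated, 402 FPKM in the luciferase, 1839.8 FPKM in the knockdown, 921 FPKM in the H3.3 mRNA and 232.5 FPKM in the H3.2 mRNA library. Atp5j, coupling factor 6 of the stalk, stood at 984, 403, 1948, 903 and 362 FPKM, and Atp5o, which ties the stalk to the head, at 346, 247, 798, 476 and 221 FPKM in the same order. All 3 were highest in the knockdown and lowest in the H3.2 mRNA library. Atp5j2 and Atp5o passed 2-fold over both controls, and Atp5j lay 0.98 above the untreated and 2.27 above the luciferase level. Atp5s, which is named for coupling factor B and is not a stable subunit, was listed at 0 in the untreated library and stood at 40.0, 112, 19.1 and 21.4 FPKM in the luciferase, knockdown, H3.3 mRNA and H3.2 mRNA libraries. Atp5d, the delta subunit of F1, stood at 4000.02 FPKM in the untreated, 2195 FPKM in the luciferase and 5059 FPKM in the knockdown library, and at 2219.9 and 1639.8 FPKM with H3.3 and H3.2 mRNA. Of the remaining genes, Atp5e, Atp5f1, Atp5h and Atp5l were also highest in the knockdown, Atp5k was highest with H3.3 mRNA, at 1227 FPKM, and Atp5sl, which encodes no subunit, in the untreated library, at 589 FPKM.

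The c ring that rotates in the membrane is encoded by Atp5g1, Atp5g2 and Atp5g3, which give the same mature protein. Atp5g3 stood at 6129.6, 1658, 6993, 1524 and 1216 FPKM in the untreated, luciferase, knockdown, H3.3 mRNA and H3.2 mRNA libraries and Atp5g1 at 3660.1, 2001, 4688, 1296 and 1015 FPKM. Atp5g2 stood at 46.5, 78.7, 107, 36.6 and 24.6 FPKM and held at most 2.10% of the family. The untreated and knockdown libraries were the high ones for Atp5g3 and Atp5g1, and luciferase lay with the add-back libraries for Atp5g3. The knockdown exceeded luciferase by 2.08 for Atp5g3 and by 1.23 for Atp5g1 on the log2 scale, and the untreated library by 0.19 and 0.36.

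The libraries labelled H3.3 mRNA and H3.2 mRNA both lay below the knockdown in these genes. In the H3.3 mRNA library, of the same source name as the knockdown, 0 genes lay 2-fold or more above the knockdown and 40 below, where 29.4% of all genes were higher and 21.7% lower; the median difference was -1.04, against 0.00 for all genes, and 70 of the 76 genes lay below. At 4-fold, 8 genes were lower, against 10.1% of all genes. In the H3.2 mRNA library 1 gene was higher and 61 lower, where 33.5% of all genes were higher and 21.4% lower; the median difference was -1.82, against 0.15 for all genes. The gene counted as higher was Cox4i2, which was listed at 0 in the knockdown. At 4-fold, 32 genes were lower in the H3.2 mRNA library, against 9.11% of all genes. By complex, 30 of 36 genes of complex I, 5 of 8 of complex III, 13 of 15 of complex IV and 13 of 17 of complex V were at least 2-fold lower with H3.2 mRNA, and 20 of 36, 4 of 8, 7 of 15 and 9 of 17 with H3.3 mRNA. The comparisons with the knockdown share the knockdown library, so its values enter each of them.

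Core and small subunits differed here too. With H3.2 mRNA, the median difference from the knockdown was -0.43 over the 7 core genes of complex I and -2.07 over the 29 accessory genes, of which 3 and 27 were at least 2-fold lower. It was -0.38 over the 5 F1 genes and -2.14 over the 10 Fo and stalk genes, of which 2 and 10 were lower. Of all genes 21.4% were lower, with 61.0% of those under 1000 bases and 17.7% of those of 1000 bases or more. The subunit groups differ in length, as given below, and the part of length in these counts was not tested. With H3.3 mRNA it was -0.56 and -1.34 for the core and accessory genes and -0.31 and -1.02 for the F1 and the Fo and stalk genes. Ndufv1 and Atp5a1 lay 0.43 and 0.09 above the knockdown with H3.2 mRNA, while Ndufs5 stood at -4.27, the lowest value among genes above 0 in both libraries.

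Set against the controls, the H3.3 mRNA library lay near luciferase and the H3.2 mRNA library below it. The H3.3 mRNA library had 6 genes at least 2-fold higher and 8 lower than luciferase, where 20.1% of all genes were higher and 23.4% lower, and a median difference of -0.04, which was 0.08 when the libraries were rescaled to the same sum. At 4-fold 1 gene was higher and 0 lower, against 8.70% and 12.5% of all genes. The H3.2 mRNA library had 1 higher and 24 lower, where 22.4% were higher and 20.5% lower, with a median of -0.69, and 1 higher and 1 lower at 4-fold, against 10.4% and 9.84% of all genes. Against the untreated library the H3.3 mRNA library had 7 higher and 18 lower, where 30.2% and 26.3% of all genes were, and the H3.2 mRNA library 7 higher and 45 lower, where 34.4% and 25.7% were. Between the libraries with added mRNA, 3 genes were higher and 26 lower with H3.2 mRNA, where 24.2% of all genes were higher and 18.9% lower, with a median of -0.69, and 5 lower at 4-fold, against 8.38%. The summed FPKM of all genes was 2.47e+06 in the H3.2 mRNA library and 3.04e+06 to 3.58e+06 in the others. After rescaling to the same sum, 16 genes were lower with H3.2 mRNA than with H3.3 mRNA, where 14.6% of all genes were. Then 8 were lower with H3.2 mRNA than with luciferase, where 14.4% of all genes were.

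The controls differed from each other in these genes. Luciferase had 9 genes at 2-fold or more above the untreated level and 20 below it, where 34.2% of all genes were higher and 25.8% lower, and 5 at 4-fold below, against 13.4%. The median difference was -0.36, against 0.02 for all genes, but 0.28, against 0.64 for all genes, under upper-quartile scaling, so its direction depended on the scaling. In the comparisons of the knockdown with either control and of either mRNA library with the knockdown, the sign of the median was the same under the 3 scalings tried, at 0.72 to 1.03 and 0.67 to 0.94 for the knockdown against untreated and luciferase, at -0.85 to -0.79 for H3.3 mRNA and at -1.50 to -1.29 for H3.2 mRNA. Rescaling to the same sum moved the median of all genes by 0.52 in the comparison of H3.2 mRNA with the knockdown, the largest shift in those 4 comparisons.

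Transcript length moved with these values. The 76 genes have short transcripts, with a median of 756.5 bases, against 2706 bases for all genes tested. Among all genes with transcripts of at least 500 and under 1000 bases, the median of the knockdown minus the mean of both controls was 0.69 on the log2 scale, and among those of 3000 bases or more it was -0.58. For the 39 respiratory chain genes of 500 to under 1000 bases it was 0.95, for the 11 under 500 bases 0.86, against 0.44 for all genes so short, for the 12 of 1000 to under 1500 bases 0.74, against 0.38, and for the 13 of 1500 to under 3000 bases -0.20, against -0.15. With H3.2 mRNA the medians against the knockdown were -2.00, -2.07, -1.35 and -0.11 in these 4 classes of the respiratory chain genes, from short to long, and -1.18, -1.42, -0.77 and 0.00 for all genes. In these 2 comparisons, genes at a similar level lay closer to the respiratory chain genes than all genes did in the classes below 1500 bases. Of the 76 genes, 73 have a mean of at least 50 FPKM, and among all genes at that level the medians of the knockdown minus the controls were 0.62, 0.85, 0.54 and -0.09 in these classes, and with H3.2 mRNA -1.72, -1.70, -1.03 and -0.06. With H3.3 mRNA the median against the knockdown at 500 to under 1000 bases was -1.08 for the respiratory chain genes and -1.13 for all genes at that level, so they did not lie further out there.

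The counts by highest library were also divided by length. Of the 1107 genes past the filter with transcripts under 1000 bases, 46.6% were highest in the knockdown, as were 42 of the 50 respiratory chain genes of that length. Of the 11885 longer genes 16.5% were highest in the knockdown, as were 14 of the 26 longer respiratory chain genes. The core subunits of complex I have a median of 1312 bases and the accessory ones 683 bases, and the F1 genes 1450.5 bases and the Fo and stalk genes 753.25 bases. Those subunit groups therefore also differ in length, and the part of length in their differences was not tested. With the trend over length removed from all genes, the median of the 76 was 0.48 for the knockdown against untreated and 0.20 against luciferase. It was -0.25 for H3.3 mRNA and -0.49 for H3.2 mRNA against the knockdown. At least 2-fold above both controls stood 6 genes, against 11.9% of the 12992 genes with a length, a smaller share of the 76 than of all genes. Across genes, which are not replicates and share the same libraries, Spearman's rho between length and the knockdown minus the controls was -0.35 over the 76 genes and -0.39 over the 6471 genes with a length and a mean of at least 50 FPKM.

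**Figure D4:**
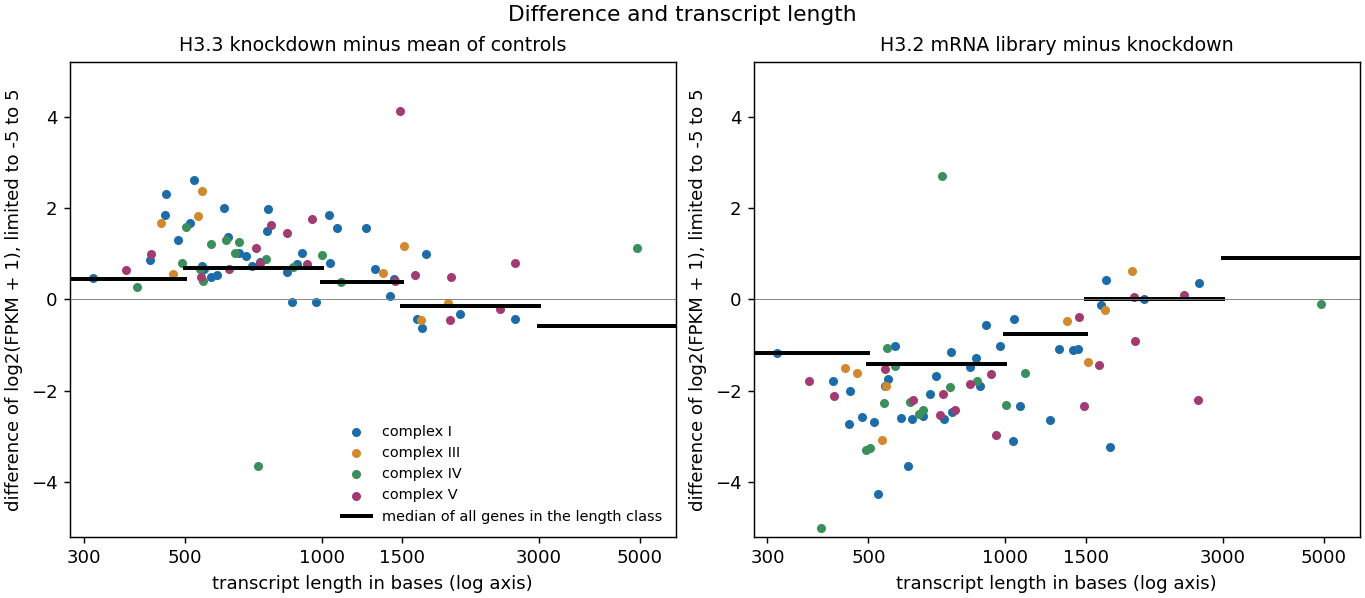
Difference of log2(FPKM + 1) (vertical axis, values beyond -5 or 5 drawn at the edge) against transcript length in bases (log axis) for the 76 genes, coloured by complex: the knockdown minus the mean of both controls (left) and the H3.2 mRNA library minus the knockdown (right). Black bars are medians of all genes in a length class, 0.69 (left) and -1.42 (right) at 500 to under 1000 bases, and most points of that class lie beyond them.

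The summed level of the markers of oocyte and early embryo stood in the same order as the respiratory chain sums, but most single markers did not. Summed over the 11 markers, the level was 22374 FPKM in the untreated, 15301 FPKM in the luciferase, 26397 FPKM in the knockdown, 12976 FPKM in the H3.3 mRNA and 9007 FPKM in the H3.2 mRNA library. Most of it was Dppa3, a maternal chromatin protein gene with a short transcript of 833 bases, at 13794, 10257, 19535, 8550.2 and 4818 FPKM in the same order. No other marker ranked the libraries as the sum did. Dppa4 was also highest in the knockdown, but Zp3, Gdf9, Pou5f1, Oog3 and Zscan4c were highest in the untreated library. Dppa2 was highest with luciferase, and Bmp15, Nlrp5 and Padi6 in the H3.2 mRNA library. Of the 10 markers past the filter, the knockdown had 0 at least 2-fold above and 6 below the untreated level. Of all genes 25.6% and 29.2% were. It had 5 above and 0 below the luciferase level, where 21.5% and 32.6% of all genes were. The cumulus markers summed to 147, 479, 1076, 430.2 and 536 FPKM, of which all but 1.39 to 19.7 FPKM came from Amhr2. The part of these markers in the values of the respiratory chain genes was not tested.

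Other genes of oxidative phosphorylation did not stand above the controls as a group in the knockdown. Their median too lay lower with added mRNA, but that of the regulators among them did not. Of 50 such genes past the filter, the knockdown had 14 at least 2-fold above and 11 below the untreated level. Of all genes 25.6% and 29.2% were. Against luciferase it had 8 above and 14 below, where 21.5% and 32.6% were. The medians were 0.10 and 0.07, against 0.00 and -0.12 for all genes. In the H3.3 mRNA library 13 were higher and 19 lower than in the knockdown, where 29.4% of all genes were higher and 21.7% lower. In the H3.2 mRNA library 9 were higher and 17 lower, where 33.5% were higher and 21.4% lower. The medians were -0.67 and -0.57, against 0.00 and 0.15 for all genes. The 10 regulators among them had medians of 1.17 and 0.06, with 6 higher and 2 lower in the H3.3 mRNA library. Of the 29 assembly factors, 12 lay above and 17 below the knockdown in each of these libraries. The transcripts of the 50 genes are longer than those of the respiratory chain genes, with a median of 2250.5 bases. Complex II, which feeds electrons from succinate to ubiquinone, was among them: Sdha, its flavoprotein, stood at 819, 589.9, 217, 585 and 549.9 FPKM in the untreated, luciferase, knockdown, H3.3 mRNA and H3.2 mRNA libraries, with the knockdown at least 2-fold under either control. Sdhb, its iron-sulfur subunit, stood at 802, 811, 1489, 920.1 and 516 FPKM, less than 2-fold higher in the knockdown. The membrane anchors Sdhc, at 1693, 792, 1002, 544 and 474 FPKM, and Sdhd, at 466, 625, 614, 246.5 and 502 FPKM, lay between the controls in the knockdown.

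Cytochrome c1, the catalytic subunit of complex III encoded by Cyc1, stood at 1904, 1868, 1689.5, 625 and 803 FPKM in the untreated, luciferase, knockdown, H3.3 mRNA and H3.2 mRNA libraries, and Cycs, cytochrome c, at 184, 141, 199, 71.5 and 80.7 FPKM. In both the knockdown was near the controls and the libraries with added mRNA were the low ones. Of 29 assembly factors, 5 were at least 2-fold above both controls and 6 below both, where 11.3% and 14.3% of all genes were. Ndufaf1 and Acad9, which act together in building complex I, were named after their values were seen: Ndufaf1 stood at 26.3, 232, 532, 283 and 304 FPKM and Acad9 at 265, 123, 21.1, 131 and 222 FPKM in the same order. Their values in the knockdown thus lay on opposite sides of both controls. Of the factors whose letters were searched in promoters, Nrf1 stood at 289, 487, 439.9, 1068 and 418 FPKM, Gabpa at 246, 209, 128, 267 and 228 FPKM and Yy1 at 544, 413, 717, 490.3 and 344 FPKM. Of the 10 regulators past the filter, 0 lay at least 2-fold above or below both controls in the knockdown. Of all genes 11.3% lay above and 14.3% below, so few of 10 would be counted at those shares.

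For 12 of the 76 genes RefSeq lists a copy or pseudogene named after the gene, among them Ndufs5, with 1, and Uqcrh, with 2. The division of reads is uncertain for these. Sequences were not compared and copies under other names were not searched, so the other genes may have copies too. The median of the knockdown minus the mean of both controls was 0.65 on the log2 scale over these 12 genes and 0.88 over the other 64.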

How the data were processed

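RNA-seq of total RNA, as TruSeq libraries of single 51-base reads per the labels' protocols, gave 1 deposited table of FPKM for each of 5 libraries. The authors used TopHat and Cufflinks on mm9, per the submitters' processing notes; versions are not given in the sources used here. FPKM divides reads by transcript length and library total, so abundant transcripts shift all others, and near-identical copies can trade reads. Depth is unknown: a search of 1096 genes under 20 FPKM for steps worth 1 read found none, the fullest bin of 0.1 log2 units holding 2.92% of them.

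Groups follow the titles. Differences are of log2(FPKM + 1) over the 13144 genes whose mean reaches 1 FPKM, counted at 2-fold, without a test. The 76 genes' counts and medians stand beside those of all genes. Genes and lists (subunit groups, other oxidative phosphorylation genes and markers) were chosen with earlier results of these data known. All 5 values are given for each complex's 2 highest genes, its 3 highest and 3 lowest by knockdown minus controls, isoform families, genes at 0 in some libraries and the smallest and largest ranges; other genes were named after their values were seen. For 1 gene under this rule, values are not reported here.

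Transcript length is the median over GENCODE transcripts paired with RefSeq ones on GRCm38, for 98.8% of genes. Promoters are RefSeq's on GRCm38.p6; no mm9 coordinate was used. Of the 54 other oxidative phosphorylation genes listed, 51 were found. Computation used Python 3.11.15, pandas 2.3.3, numpy 2.4.6 and matplotlib 3.10.9, and was tested on simulated data. The alternatives were other pseudocounts, filters, scalings and folds, a trend over length removed, restricted isoforms left out, and length classes.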

Additional observations from a re-analysis of the deposited data

How the results depend on the processing

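No paired analysis was possible because each group is 1 library and the labels carry no replicate numbers; for the same reason no library could be left out in turn. At a fold of 4, the counts were 5 for the knockdown against untreated, 13 against luciferase, 0 above both controls, 5 lower for luciferase against untreated, 8 and 32 lower for H3.3 and H3.2 mRNA against the knockdown, 5 lower for H3.2 against H3.3 mRNA, and 0 and 1 lower for H3.3 and H3.2 mRNA against luciferase, each with 1 gene higher, which turned the direction of the former and left none in the latter. With the trend over transcript length removed, the counts were 14 higher against untreated, 21 against luciferase, 6 above both controls, 14 and 19 lower for H3.3 and H3.2 mRNA against the knockdown, and 7 lower for H3.2 mRNA against luciferase. Upper-quartile scaling gave 40 higher for the knockdown against untreated, where 29.2% of all genes were. For luciferase against untreated it gave 7 lower, where 17.4% of all genes were, with 18 higher, a turned direction. Rescaling to the same sum gave 16 lower for H3.2 against H3.3 mRNA, where 14.6% of all genes were. It gave 8 lower for H3.2 mRNA against luciferase, where 14.4% were. For H3.3 mRNA against luciferase it gave 4 lower, where 20.7% were, with 11 higher, also turned. A larger fold counts fewer genes by its construction; the cause of the other changes was not tested. An alternative chosen after seeing the data kept only the 26 genes with transcripts of 1000 bases or more, which lowers counts by its construction. In the knockdown 5 and 10 were higher against untreated and luciferase, where 24.8% and 19.2% of all longer genes were. Above both stood 3, where 10.2% did. For luciferase against untreated 5 were lower, where 25.2% were. Against the knockdown 11 and 13 were lower with H3.3 and H3.2 mRNA, where 19.4% and 17.7% were. For H3.2 against H3.3 mRNA 4 were lower, where 17.8% were. Against luciferase 2 and 4 were lower with H3.3 and H3.2 mRNA, where 23.1% and 19.4% were. The other 104 planned and 9 added values under alternatives, the sums of each complex among them, stayed within 1.5 times the main value, and kept their direction with the exception of H3.3 mRNA against luciferase. That comparison, with 8 lower and 6 higher, had 6 and 6 with a pseudocount of 5 and under quantile normalization and 7 and 7 with the trend removed, and its median of -0.04 was 0.01 under quantile normalization and 0.13 among transcripts under 1000 bases, so it has no stable direction. The unknown depth limits the precision of every value, and of low ones most.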
